A study of Mus musculus with 9 samples.

Results

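The collagen genes were followed as a family in lymphatic endothelial cells (LECs), the cells that line lymphatic vessels. Members were the rows whose gene symbol is Col, a number, the letter a and a second number, which gave 41 of the 23018 genes in the count table. They were split by type number into 9 fibrillar genes (types I, II, III, V and XI), 8 basement membrane genes (types IV, XV and XVIII) and 24 others. The cells came from the meninges, the membranes around the brain, and from 2 peripheral tissues, the diaphragm and the skin. All donors were male wild-type C57BL/6J mice, 10 weeks old and untreated. Cells were sorted by flow cytometry as negative for the leukocyte antigen CD45 and positive for both CD31 and podoplanin (PDPN). Each tissue gave 3 libraries, and their total counts lay between 26075366 and 34592850. Whether replicate libraries stem from different mice is not stated in the labels, so the p-values below measure only the spread between these libraries, which may be technical.

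Collagens are extracellular proteins built from 3 chains wound into a triple helix. Fibrillar collagens assemble into the banded fibres that carry tension in connective tissue and are made mainly by fibroblasts and bone cells. Type IV collagen forms the sheet-like network of basement membranes, on which endothelial cells rest, and types XV and XVIII link that sheet to the matrix around it. Lymphatic capillaries are known for a thin and interrupted basement membrane, while collecting lymphatics have a continuous one. The remaining types decorate fibrils, form beaded filaments or short-chain networks, or sit in the cell membrane.

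The levels of LEC markers were described first. The 9 LEC markers chosen (Prox1, Flt4, Lyve1, Pdpn, Pecam1, Ccl21a, Mmrn1, Reln and Cdh5) had counts in every tissue. Pecam1 and Pdpn encode CD31 and podoplanin, on which the cells were sorted, so their counts are no separate check of identity. The summed level of the 9 markers was 16316, 6658 and 11810.1 CPM (counts scaled to the effective library size) in the meningeal libraries, 14797, 18819.8 and 20438 CPM in the diaphragm libraries and 21168, 20535 and 20951 CPM in the skin libraries. The part of blood endothelial RNA in this sum was not tested. Of these 9, Lyve1, a hyaluronan receptor of LECs, was lower in the meninges than in skin (log2 fold change -1.63 ± 0.34, edgeR adjusted p = 0.0326). Markers of other cell types were also present. The 12 fibroblast markers, chosen without collagens, summed to 634, 3200.2 and 3545 CPM in the meningeal libraries, 713, 863 and 395 CPM in the diaphragm libraries and 72.4, 531 and 178 CPM in the skin libraries. Meninges replicates 2 and 3 thus stood apart from replicate 1, which lay within the range of the diaphragm libraries. Of these 12 genes, Serpinf1 was higher in the meninges than in both other tissues and Thbs2 was higher than in skin, while Tcf21 had no count in diaphragm or skin. The 11 meningeal fibroblast markers summed to between 207 and 541 CPM in the meninges, between 7.16 and 62.2 CPM in the diaphragm and between 45.1 and 162 CPM in the skin, and 8 of them had no count in each of the peripheral tissues. The 10 bone and cartilage markers summed to 184, 1009.5 and 697 CPM in the meninges, 42.5, 4.39 and 3.94 CPM in the diaphragm and 0.387, 48.1 and 63.4 CPM in the skin, with 5 at 0 in each peripheral tissue. Alpl and Runx2, both active in bone-forming cells, were higher in the meninges than in either. The 10 mural cell markers summed to 538, 1127 and 1343 CPM in the meninges, 557, 412 and 339 CPM in the diaphragm and 60.7, 39.3 and 297 CPM in the skin. Of these, Notch3 was higher in the meninges than in skin. The 8 skeletal muscle markers summed to 22.1, 43.8 and 37.6 CPM in the meninges. In the diaphragm they summed to 611, 1102 and 460 CPM, and in the skin to 163, 212 and 287 CPM. Pax7 and Ttn were lower in the meninges than in the diaphragm, and Neb was lower than in skin. The part of muscle RNA in the collagen levels was not tested. For the 8 blood endothelial markers the sums were 2641, 1053 and 1489 CPM in the meninges, 1586, 796 and 738 CPM in the diaphragm and 467, 568 and 403 CPM in the skin, highest in meninges replicate 1. Plvap, a protein of fenestrated capillaries, was higher in the meninges than in both other tissues, Aqp1, Sox17 and Esm1 were higher than in skin, and Emcn was lower than in skin. Markers named here as higher or lower passed an edgeR adjusted p under 0.05. Of all genes tested, 0.169% were higher and 0.175% lower in the meninges than in the diaphragm at this threshold. Against skin these shares were 0.748% and 0.573%. In bulk RNA, fewer cells of a type and less RNA per cell cannot be told apart.

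Fibrillar collagens made up most of the collagen RNA of meninges replicates 2 and 3, and basement membrane collagens were the largest class in each diaphragm library. Collagen genes took 0.351%, 1.51% and 1.30% of all counts in meninges replicates 1 to 3, 0.258%, 0.168% and 0.133% in the diaphragm libraries and 0.129%, 0.237% and 0.336% in the skin libraries. The 9 fibrillar genes summed to 1239, 7121 and 6704 CPM in the meninges, 976, 591 and 384 CPM in the diaphragm and 106, 794 and 698 CPM in the skin. Every meningeal library lay above every peripheral one for this sum, and replicate 1 was far closer to the peripheral libraries than to replicates 2 and 3. The 8 basement membrane genes summed to 729.8, 460.3 and 696 CPM in the meninges, 993, 703 and 665 CPM in the diaphragm and 1038, 669 and 1249 CPM in the skin. Here the 3 tissues overlapped, and the spread over all 9 libraries was under 3-fold. The 24 other genes summed to 1255, 4948 and 4515 CPM in the meninges, 510.3, 386 and 380.4 CPM in the diaphragm and 261, 1098 and 2204 CPM in the skin, where a single gene, Col8a1, made up most of the sum in replicate 3. The level of fibroblast and bone markers moved with the fibrillar sum across the meningeal libraries, and its part in the result was not tested.

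**Figure D1:**
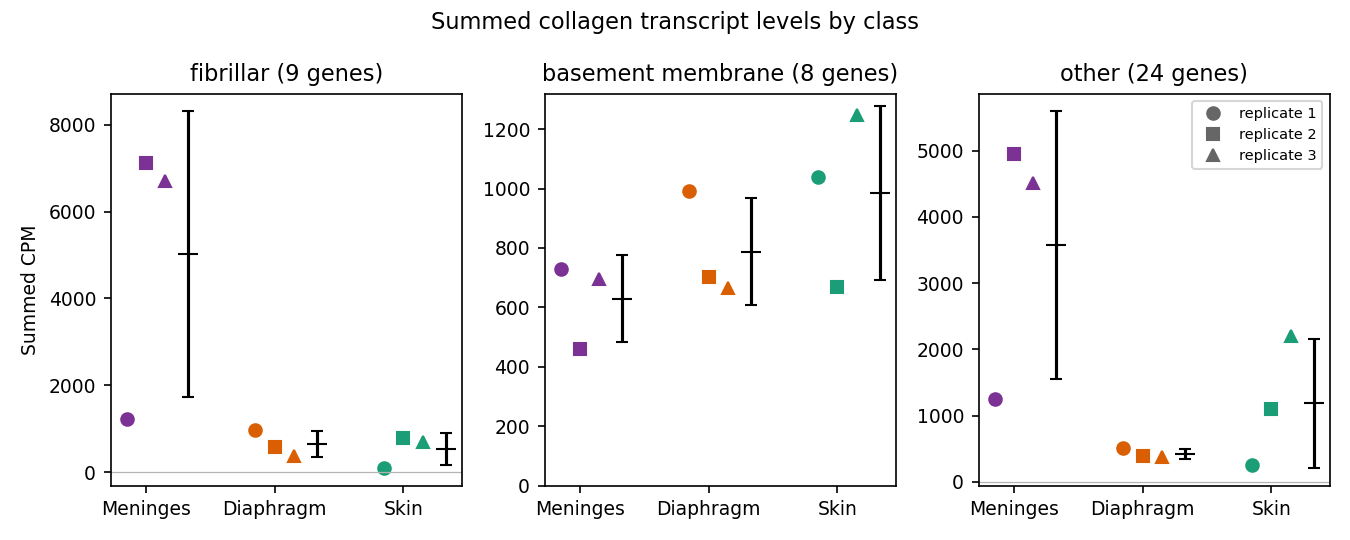
Summed CPM of the fibrillar, basement membrane and other collagen genes in each library, by tissue; marker shape gives the replicate, and the bar beside the points is the mean with its SD (n = 3). Fibrillar sums were 5021 ± 3282 CPM in the meninges, 650.4 ± 300.3 in the diaphragm and 533 ± 373 in the skin, while basement membrane sums were 629 ± 147, 787 ± 179.6 and 986 ± 293 CPM in that order of tissues.

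Mean transcript levels per kilobase of transcript were ranked within each tissue. Single libraries can differ from the order of means. In skin replicate 1 Col8a1 was at 22.4 CPM and Col4a1 at 347 CPM. In meninges replicate 1 Col3a1 was at 128 CPM and Col4a1 at 344 CPM. In the meninges the highest were Col1a1 at 355 ± 228 CPM per kilobase, Col1a2 at 354 ± 227, Col12a1 at 153 ± 89.1 and Col3a1 at 131 ± 95.7 (SD, n = 3). In the diaphragm the order began with Col4a1 at 63.1 ± 15.5 CPM per kilobase and Col3a1 at 54.4 ± 25.4, followed by Col4a2 at 26.9 ± 4.55 and Col1a2 at 24.2 ± 11. In the skin it began with Col8a1 at 132 ± 155 CPM per kilobase, then Col4a1 at 57.4 ± 17.3, Col18a1 at 48.7 ± 28.1, Col23a1 at 39.8 ± 1.62 and Col4a2 at 38.3 ± 18.9. Neighbouring chains in each order differed by less than the larger SD of the pair, apart from Col3a1 and Col4a2 in the diaphragm.

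**Figure D2:**
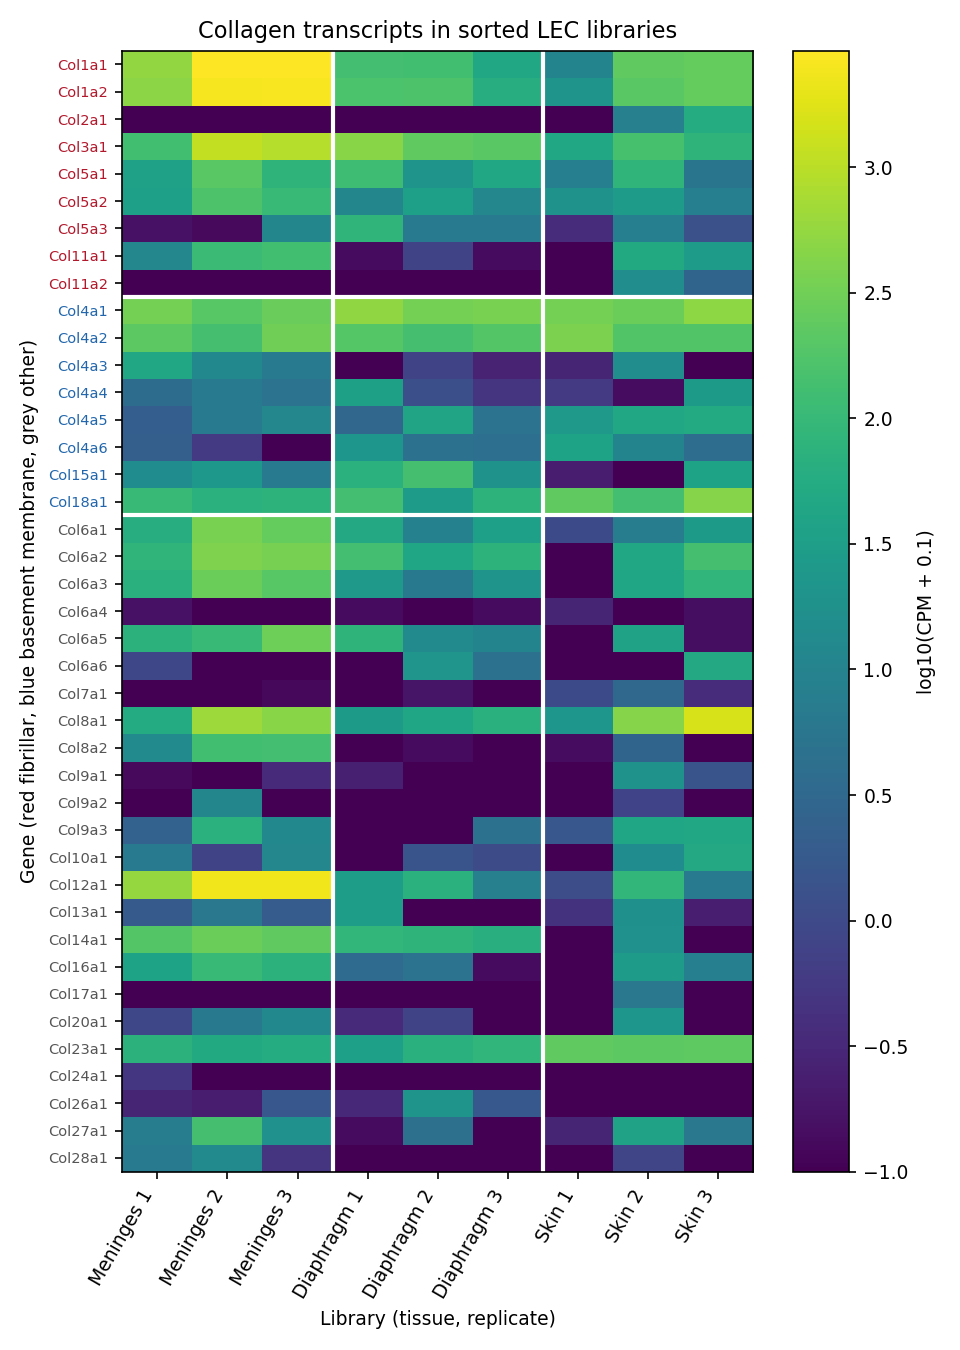
Level of each of the 41 collagen genes in each of the 9 libraries, as log10(CPM + 0.1); rows are grouped as fibrillar, basement membrane and other genes and columns run by tissue and replicate. Col4a1, Col4a2, Col18a1 and Col23a1 are present in every column, while many other rows are dark in skin replicate 1, which had counts for 24 of the 41 genes.

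Of the 41 genes, 33 passed the filter on low counts and were tested between tissues with edgeR's quasi-likelihood test, with p-values adjusted by the Benjamini-Hochberg method over all 14831 genes tested. The other 8 (Col2a1, Col11a2, Col6a4, Col7a1, Col9a1, Col9a2, Col17a1 and Col24a1) were too low, and their values are given below. Between meninges and diaphragm 1 collagen gene passed an adjusted p under 0.05, Col8a2, which was higher in the meninges, while 0.344% of all genes tested passed (0.169% higher and 0.175% lower in the meninges). Between meninges and skin 1 collagen gene passed, Col3a1, higher in the meninges, against 1.32% of all genes (0.748% higher and 0.573% lower in the meninges). Between diaphragm and skin none of the 33 passed, against 0.0405% of all genes (0.0337% higher and 0.00674% lower in the diaphragm). For diaphragm against skin, 8 collagen genes had an unadjusted p under 0.05 in edgeR, 9 in the DESeq2 Wald test and 6 in limma voom. At an adjusted p under 0.05 the DESeq2 Wald test called 4, where it called 808 of all 14831 genes. Limma voom called 0, where it called 1 of all genes. The unadjusted count in edgeR was 13 of 33 for meninges against diaphragm and 11 of 33 for meninges against skin. Of all genes, 10.1%, 13.8% and 11.8% had such a p for meninges against diaphragm, meninges against skin and diaphragm against skin. The median log2 fold change over the tested collagen genes was 2.21 for meninges over diaphragm and 1.73 for meninges over skin, where all genes tested had medians of 0.05 and 0.08. For diaphragm over skin it was -0.69, where all genes had 0.01. The first 2 comparisons share the meningeal libraries, so they are not independent of each other.

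Separation of the libraries was counted as a second description of the 33 tested genes. In 14 of them every meningeal library lay above every diaphragm library, where 10.4% of all genes tested did so, and in 2 every meningeal library lay below, where 6.70% did. Against skin, 10 lay wholly above, where 12.9% of all genes did, and 4 wholly below, where 7.34% did. Every diaphragm library lay above every skin library in 3 genes (Col14a1, Col26a1 and Col3a1), where 7.54% of all genes did, and below in 1 gene, Col23a1, where 5.95% did. All 3 meningeal libraries lay above all 6 peripheral ones in 8 genes (Col1a1, Col1a2, Col5a2, Col6a1, Col8a2, Col12a1, Col14a1 and Col16a1), where 4.59% of all genes did. Meninges replicate 1 lay by itself above all 6 peripheral libraries in 10 genes, these 8 with Col4a3 and Col28a1. Of all genes, 14.6% did the same. For these 2 counts the members were 24.2% and 30.3% of the 33. Meninges replicate 1 had the lowest fibroblast markers of its tissue but the highest blood endothelial markers of any library. Its bone and cartilage and its meningeal fibroblast markers were above those of each peripheral library. The part of these markers in the counts was not tested. All 3 skin libraries lay above the 6 others in 1 gene, Col23a1, where 2.29% of all genes did, and all 3 diaphragm libraries lay above the 6 others in 0 genes, where 1.96% did. Col7a1, one of the genes that were not tested, was also higher in each skin library than in each of the other 6, at values of a few CPM or less.

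**Figure D3:**
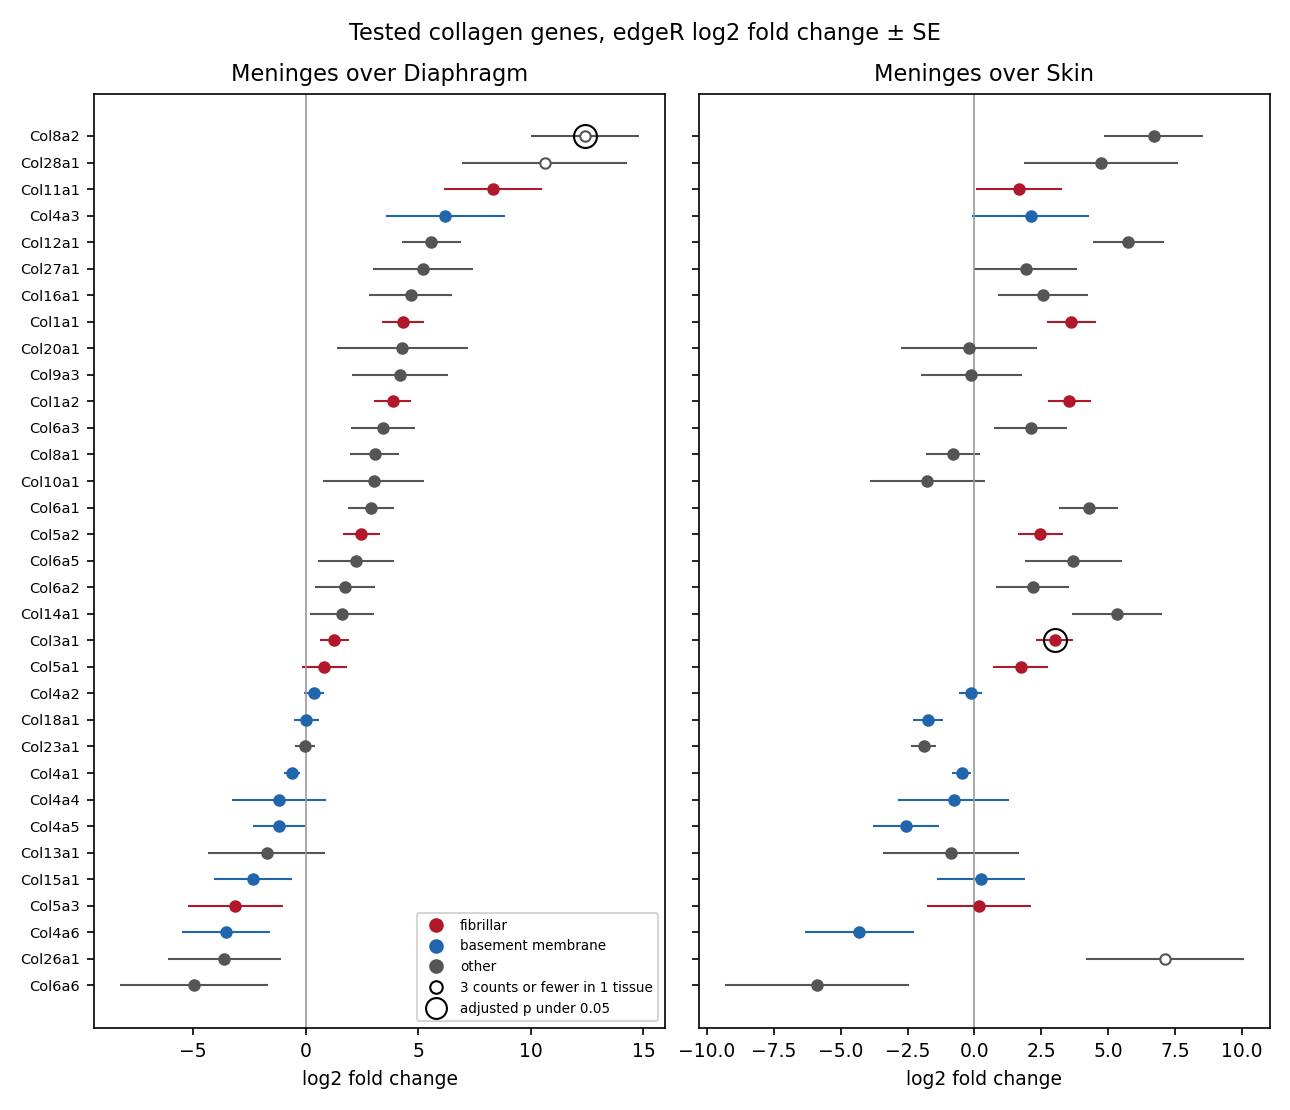
Log2 fold change with its standard error for the tested collagen genes, meninges over diaphragm (left) and meninges over skin (right), coloured by class. Open points had 3 counts or fewer in one of the tissues, and rings mark the 2 genes that passed the test, Col8a2 against diaphragm and Col3a1 against skin; most basement membrane genes lie left of 0 in both panels.

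Type I collagen, the main fibre of bone, tendon and skin, is made from the chains Col1a1 and Col1a2. Col1a1 stood at 543, 2917 and 2847 CPM in the meninges, 137, 131 and 48.3 CPM in the diaphragm and 10.4, 240.5 and 259.9 CPM in the skin. Col1a2 stood at 488, 2574 and 2614 CPM in the meninges, 162, 165 and 61.3 CPM in the diaphragm and 20.3, 211 and 254 CPM in the skin. For both chains the meningeal libraries were above all others without overlap, replicate 1 was the lowest of the 3, and skin replicate 1 was the lowest of all 9. The log2 fold change of Col1a1 was 4.32 ± 0.94 (SE) over diaphragm and 3.63 ± 0.91 over skin, with edgeR adjusted p = 0.0887 and 0.0757. For Col1a2 it was 3.87 ± 0.82 over diaphragm and 3.55 ± 0.81 over skin, with edgeR adjusted p = 0.0787 and 0.0518. Neither passed the test in this fit. The DESeq2 Wald test and edgeR with no filter called both genes in both comparisons, while limma voom called neither in either. Fits of 2 tissues called both over diaphragm and neither over skin, and edgeR with the replicate number as a block did the reverse. Col1a2 over skin also passed with upper-quartile factors and with a filter of 50 counts. Without meninges replicate 1 both genes passed in both comparisons (log2 fold changes between 4.001 and 4.78, adjusted p between 0.0165 and 0.0321), and without skin replicate 1 those over diaphragm passed (adjusted p = 0.00481 for Col1a1 and 0.0071 for Col1a2), as did Col1a1 over skin (3.07, adjusted p = 0.049). Col1a2 over skin also passed without any one diaphragm library (adjusted p between 0.0385 and 0.0499). With replicate 1 alone standing for the meninges the log2 differences were 2.37 and 1.65 for Col1a1 and 1.91 and 1.57 for Col1a2. That setting was chosen after seeing the data. Its spread comes from the diaphragm and skin libraries only, so the lone library is assumed to vary as they do, and its differences are given here and below as values with no test.

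Col3a1 encodes the single chain of type III collagen, abundant in the walls of vessels and in other distensible tissues. It measured 128, 1144 and 910.3 CPM in the meninges, 466, 235 and 209 CPM in the diaphragm and 47.8, 146 and 80.1 CPM in the skin. Meninges replicate 1 lay below skin replicate 2 and below each diaphragm library, so the meningeal values overlapped both other groups, while each diaphragm library lay above each skin library. The log2 fold change of Col3a1 over skin was 2.995 ± 0.68 (edgeR adjusted p = 0.0496), which passed the test. Over diaphragm it was 1.26 ± 0.64 (adjusted p = 0.56), and diaphragm over skin gave 1.73 ± 0.65 (adjusted p = 0.362). With replicate 1 alone standing for the meninges the log2 difference from skin was 0.46. The call held in 4 of the 9 fits that leave out 1 library. Removal of meninges replicate 2 or 3, diaphragm replicate 2, or skin replicate 1 or 3 ended it (adjusted p between 0.0514 and 0.17). It was also lost with DESeq2 size factors (adjusted p = 0.051), with limma voom (0.247) and in a fit of these 2 tissues only (0.0986), while the DESeq2 Wald test kept it (0.000311). The promoter window of this gene, 250 bases before to 50 after the start of the RefSeq gene (GRCm38.p6, chr1:45311288-45311587, plus strand), is shown because Col3a1 was one of the 2 members that passed a test. Capitals mark the match to TATAAA, searched on both strands, which 13.6% of 32851 mouse promoter windows of the same length hold. The match describes the letters only, and neither its position nor its use as a TATA box was tested.
Col3a1: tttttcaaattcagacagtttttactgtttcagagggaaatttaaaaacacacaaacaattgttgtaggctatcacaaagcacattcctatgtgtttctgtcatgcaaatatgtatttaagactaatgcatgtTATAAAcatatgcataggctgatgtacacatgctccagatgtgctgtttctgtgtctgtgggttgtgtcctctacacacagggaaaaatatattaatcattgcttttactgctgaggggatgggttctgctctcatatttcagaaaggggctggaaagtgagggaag

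The type V chains, which join type I collagen in mixed fibrils and set their width, differed from one another. Col5a2 had 33, 164 and 108 CPM in the meninges, 11, 32.6 and 11.6 CPM in the diaphragm and 18.6, 28.3 and 8.36 CPM in the skin. The meningeal libraries lay above all others, by a small margin for replicate 1 (2.46 ± 0.83 on the log2 scale over diaphragm and 2.46 ± 0.83 over skin, edgeR adjusted p = 0.324 and 0.202). Of the alternatives only the DESeq2 Wald test called these 2 differences (adjusted p = 0.0366 and 0.0224). Col5a1 had 35.9, 209 and 81 CPM in the meninges, 118, 20.3 and 47.1 CPM in the diaphragm and 8.48, 84.4 and 5.35 CPM in the skin, and all 3 groups overlapped. Col5a3 was at 0.0626, 0.0312 and 11 CPM in the meninges, 83.3, 6.93 and 7.09 CPM in the diaphragm and 0.271, 8.44 and 1.19 CPM in the skin, so its highest value came from diaphragm replicate 1. Among all 9 libraries that one also had the most RNA of 6 mesothelial markers, 1194, 41 and 86.3 CPM in the diaphragm libraries against at most 3.44 CPM elsewhere, and their part in the result was not tested. The fibrillar chains of cartilage were patchier. Col11a1 had 11.6, 113 and 132 CPM in the meninges, 0.0369, 0.72 and 0.0358 CPM in the diaphragm and 0, 51.1 and 28.9 CPM in the skin, above the diaphragm in each meningeal library but overlapping skin. Col2a1 and Col11a2 had no count in any meningeal or diaphragm library or in skin replicate 1. Col2a1 reached 8.77 and 57.7 CPM in skin replicates 2 and 3, and Col11a2 15.5 and 2.7 CPM.

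Basement membrane collagen IV is built mainly from Col4a1 and Col4a2, which were among the 10 collagen genes with at least 100 counts in every library. Col4a1 measured 344, 198 and 276 CPM in the meninges, 535, 345 and 372 CPM in the diaphragm and 347, 286 and 507 CPM in the skin. Its highest and lowest library differed by 2.7-fold. The meningeal libraries were all below the diaphragm ones, only just so for meninges replicate 1, and they overlapped skin. Col4a2 measured 216, 141 and 315 CPM in the meninges, 195, 140.1 and 186 CPM in the diaphragm and 388, 178 and 177 CPM in the skin, with a 2.77-fold range and overlap between all tissues. Col1a1 and Col12a1, in the same libraries, ranged over 280.2-fold and 2273-fold. The log2 differences of Col4a1 were -0.61 ± 0.35 (SE) for meninges over diaphragm, -0.48 ± 0.35 for meninges over skin and 0.14 ± 0.35 for diaphragm over skin. For Col4a2 they were 0.37 ± 0.43, -0.14 ± 0.43 and -0.51 ± 0.43 in the same order. In the fit of all 9 libraries the lowest edgeR adjusted p of either gene was 0.644, which does not show that the tissues are alike. Without skin replicate 2 the edgeR adjusted p of Col4a1 between meninges and skin was 0.425.

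In the mouse genome Col4a1 and Col4a2 start head to head on chromosome 8 and are read in opposite directions. Their promoter windows (RefSeq, GRCm38.p6) are printed because both chains come from this one stretch: chr8:11312777-11313076 on the minus strand for Col4a1 and chr8:11312555-11312854 on the plus strand for Col4a2. Capitals mark the 78 bases that both windows hold, written on opposite strands.
Col4a1: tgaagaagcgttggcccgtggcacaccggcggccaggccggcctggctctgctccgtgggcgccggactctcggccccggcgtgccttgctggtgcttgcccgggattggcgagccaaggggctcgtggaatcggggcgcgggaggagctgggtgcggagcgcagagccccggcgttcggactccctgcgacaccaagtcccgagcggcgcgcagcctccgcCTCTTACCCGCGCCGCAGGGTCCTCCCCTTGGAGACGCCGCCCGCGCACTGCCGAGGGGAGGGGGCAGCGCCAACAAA
Col4a2: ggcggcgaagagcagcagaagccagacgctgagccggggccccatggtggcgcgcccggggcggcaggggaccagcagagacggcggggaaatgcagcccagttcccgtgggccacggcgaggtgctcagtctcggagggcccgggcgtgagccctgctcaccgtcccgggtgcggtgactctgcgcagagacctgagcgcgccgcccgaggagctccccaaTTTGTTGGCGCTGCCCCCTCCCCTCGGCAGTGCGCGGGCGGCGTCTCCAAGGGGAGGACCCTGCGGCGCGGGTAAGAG
Neither window holds TATAAA on either strand. CCAAT occurs once in each, and GGGCGG occurs once in the Col4a1 window and 3 times in the Col4a2 window, counting both strands and overlapping matches. Of 32851 mouse windows of this length, 37.4% hold CCAAT and 35.7% hold GGGCGG. These matches describe the letters only.

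The 4 other type IV chains, whose networks are best known from kidney, inner ear, eye and smooth muscle, were low. They form 2 further head-to-head gene pairs, Col4a3 with Col4a4 on chromosome 1 and Col4a5 with Col4a6 on the X chromosome. Col4a3 had 47.8, 12.2 and 6.69 CPM in the meninges, 0, 0.72 and 0.179 CPM in the diaphragm and 0.193, 15.4 and 0 CPM in the skin. Meninges replicate 1 was the highest library. It had the lowest fibroblast markers of its tissue and the highest blood endothelial markers of any library, and their part in the result was not tested. Each meningeal library was above each diaphragm library for Col4a3 and overlapped skin (log2 fold change 6.19 ± 2.64 over diaphragm, edgeR adjusted p = 0.44). Of the alternatives only the DESeq2 Wald test called this difference (adjusted p = 0.0376). Col4a4 had 3.73, 7.09 and 5.0 CPM in the meninges, 34.2, 1.14 and 0.394 CPM in the diaphragm and 0.464, 0.0406 and 26.6 CPM in the skin. The pair did not move together: the library highest for Col4a4, diaphragm replicate 1, had no count for Col4a3. Col4a5 had 2.03, 7.22 and 11.8 CPM in the meninges, 2.87, 40.0 and 4.98 CPM in the diaphragm and 26.1, 45.6 and 52.5 CPM in the skin, with each meningeal library below each skin library (log2 fold change -2.56 ± 1.23, edgeR adjusted p = 0.38). Col4a6 had 2.19, 0.469 and 0 CPM in the meninges, 21.9, 4.7 and 4.15 CPM in the diaphragm and 38.4, 10.1 and 3.88 CPM in the skin. Meningeal libraries were the lowest for this chain against both tissues (log2 fold change -3.52 ± 1.96 over diaphragm and -4.30 ± 2.03 over skin, adjusted p = 0.623 and 0.372).

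Collagen XVIII, whose C-terminal fragment endostatin restrains vessel growth, was present in each library. Col18a1 measured 100.4, 70.2 and 75.6 CPM in the meninges, 135, 29.5 and 78 CPM in the diaphragm and 238, 135 and 444 CPM in the skin. Each skin library was above each meningeal one, while the highest diaphragm library was level with the lowest skin one. The log2 fold change was -1.73 ± 0.58 for meninges over skin and -1.75 ± 0.58 for diaphragm over skin (edgeR adjusted p = 0.198 and 0.318), so neither passed. Its relative Col15a1, which bridges fibrils near basement membranes, was at 14.5, 23.9 and 6.66 CPM in the meninges, 69.8, 141 and 19.3 CPM in the diaphragm and 0.116, 0 and 38.1 CPM in the skin. It overlapped between all tissues and was nearly absent from 2 skin libraries. Over the 8 basement membrane genes the median log2 fold change was -0.89 for meninges over diaphragm, -0.63 for meninges over skin and -0.64 for diaphragm over skin, where the 7 tested fibrillar genes had medians of 2.46, 2.46 and 0.00.

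Among collagens that decorate fibrils, Col12a1, found on type I fibrils in dense connective tissue, ranked next after the type I chains by mean level per kilobase in the meninges. It measured 573, 2321 and 2375 CPM in the meninges, 31.8, 70.4 and 8.6 CPM in the diaphragm and 1.04, 89.7 and 7.08 CPM in the skin. The lowest meningeal library was above the highest peripheral one by more than 6-fold. The log2 fold change was 5.57 ± 1.31 over diaphragm and 5.75 ± 1.32 over skin (edgeR adjusted p = 0.119 and 0.0528), which did not pass. With no filter and with the replicate block edgeR called both differences. Limma voom called neither, and neither was among the DESeq2 calls. Without skin replicate 2, the library with the highest keratinocyte markers, both differences passed (5.57 and 8.76, adjusted p = 0.0112 and 0.00365). That over diaphragm also passed without skin replicate 1 (adjusted p = 0.0151), and that over skin without meninges replicate 1 or any one diaphragm library (adjusted p between 0.0344 and 0.0473). With replicate 1 alone standing for the meninges the differences were 3.95 and 4.11, and 3.96 and 7.14 when skin replicate 2 was left out as well. Col14a1, a related fibril-bound collagen, had 188, 292 and 241 CPM in the meninges, 91.9, 79.9 and 65.3 CPM in the diaphragm and 0, 17.8 and 0 CPM in the skin. The 3 tissues did not overlap, and meninges replicate 1 was close to its group here (log2 fold change 1.60 ± 1.43 over diaphragm and 5.34 ± 1.68 over skin, adjusted p = 0.867 and 0.178). Limma voom and edgeR with no filter called the difference from skin, while the DESeq2 Wald test did not. Skin replicate 2 held all the skin counts of Col14a1. Without it the meninges were at least 3824-fold and the diaphragm at least 1255-fold above skin, taking 3 counts over the 2 remaining skin libraries as the floor, and both differences passed (edgeR adjusted p = 2.65e-05 and 9.86e-05). Col16a1 had 39, 104 and 73.4 CPM in the meninges, 3.57, 4.92 and 0.0358 CPM in the diaphragm and 0, 28.9 and 8.23 CPM in the skin, again with the meninges on top. Col20a1 and the 3 type IX chains, known from cartilage, stayed at or below 70.1 CPM in each library and were at 0 in several.

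Type VI collagen forms beaded filaments that anchor cells to the interstitial matrix, from the chains Col6a1, Col6a2 and one longer chain. Col6a1 stood at 59.3, 368 and 253 CPM in the meninges, 49, 9.09 and 33.1 CPM in the diaphragm and 0.89, 7.35 and 27.1 CPM in the skin. The meningeal libraries were above all others, with replicate 1 close to diaphragm replicate 1 (log2 fold change 2.90 ± 1.02 over diaphragm and 4.27 ± 1.09 over skin, edgeR adjusted p = 0.346 and 0.0791). The difference from skin passed without meninges replicate 1 or skin replicate 3 (adjusted p = 0.0489 and 0.0474). It was also called by the DESeq2 Wald test and by edgeR with the replicate block. With no filter edgeR called both differences of Col6a1, while limma voom called neither. Col6a2 stood at 82.9, 401 and 361 CPM in the meninges, 137, 43.4 and 75.5 CPM in the diaphragm and 0, 47.9 and 139.8 CPM in the skin, and overlapped. Col6a3, the usual longer chain, had 69.2, 294 and 201 CPM in the meninges, 26, 6.36 and 20.1 CPM in the diaphragm and 0, 42.7 and 88.2 CPM in the skin. Of the alternative longer chains, Col6a5 had 74.7, 104 and 297 CPM in the meninges, 78.8, 13.3 and 10.3 CPM in the diaphragm and 0, 36.5 and 0.0457 CPM in the skin, Col6a6 was at most 48.8 CPM in any library, and Col6a4 was close to 0 in all 9. Skin replicate 1 had no count for Col6a2, Col6a3, Col6a5 or Col6a6.

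The short-chain collagens Col8a1 and Col8a2 build hexagonal networks, best known from the corneal basement membrane, and are also made in vessel walls. Col8a2 had 12.9, 128 and 134 CPM in the meninges, 0, 0.0379 and 0 CPM in the diaphragm and 0.0387, 2.6 and 0 CPM in the skin. The counts behind these levels were 9570 over the 3 meningeal libraries, 1 over the 3 diaphragm libraries and 65 over the 3 skin libraries. The meningeal level per library size was 7659 times that of the diaphragm, with a 95% counting interval of 1374 to 302563, and Col8a2 passed the test against diaphragm (edgeR adjusted p = 0.0468). Against skin it did not (log2 fold change 6.69 ± 1.84, adjusted p = 0.107), although the libraries did not overlap. With no filter and with the replicate block edgeR called this difference. Without skin replicate 2, which held 64 of the 65 skin counts, it passed as well (adjusted p = 0.00945). The ratio to the 1 count left in skin was then 4487 with a 95% counting interval of 805 to 177252. The call against diaphragm held in 4 of the 9 fits that leave out 1 library. Removal of meninges replicate 2 or 3 or of a diaphragm library ended it (adjusted p between 0.145 and 0.169). The DESeq2 Wald test gave no adjusted p for this comparison of Col8a2, so the gene is not among those it called. Col8a1, its partner, behaved differently, with 55.1, 637 and 465 CPM in the meninges, 27.3, 42.7 and 68.4 CPM in the diaphragm and 22.4, 444 and 1554 CPM in the skin. Skin and meninges overlapped for Col8a1, and skin replicate 3 was the highest of the 9 libraries. The Col8a2 promoter window (RefSeq, GRCm38.p6, chr4:126286544-126286843, plus strand) is shown as that of the second member to pass a test. Capitals mark its 4 GGGCGG matches on either strand, which overlap in one place and describe the letters only.
Col8a2: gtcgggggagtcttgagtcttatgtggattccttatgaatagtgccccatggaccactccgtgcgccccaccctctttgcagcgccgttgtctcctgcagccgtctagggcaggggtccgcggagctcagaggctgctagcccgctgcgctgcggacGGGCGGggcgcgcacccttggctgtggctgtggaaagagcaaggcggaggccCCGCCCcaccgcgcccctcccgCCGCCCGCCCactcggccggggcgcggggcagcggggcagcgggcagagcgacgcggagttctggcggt

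Among collagens that span the cell membrane, Col23a1 was the tested member with all skin libraries on top. It had 72.8, 50.9 and 57.6 CPM in the meninges, 32.5, 67.4 and 87.3 CPM in the diaphragm and 234, 215 and 226 CPM in the skin. Each skin library was above each of the 6 others, and the skin libraries were nearly equal. The log2 fold change was -1.90 ± 0.47 for meninges over skin and -1.85 ± 0.46 for diaphragm over skin (edgeR adjusted p = 0.0687 and 0.181), and meninges over diaphragm gave -0.05 ± 0.45. Neither difference from skin passed the test in this edgeR fit, while the DESeq2 Wald test called both. Limma voom and edgeR with no filter called that of the meninges and not that of the diaphragm. The difference of the meninges passed in edgeR without diaphragm replicate 1 (-1.90, adjusted p = 0.0413). Without meninges replicates 2 and 3 and skin replicate 2 together the differences were -1.66 for the meninges, again from 1 library, and -1.88 for the diaphragm (adjusted p = 0.145). Of the other membrane collagens, Col13a1, found at neuromuscular junctions, was highest in diaphragm replicate 1 at 32 CPM with 0 in both other diaphragm libraries, and Col17a1, a hemidesmosome protein of keratinocytes, had counts in skin replicate 2 alone (5.93 CPM). That library also had the highest sum of keratinocyte markers, 192 CPM, against at most 45.9 CPM in any other library, and their part in the result was not tested.

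The remaining genes were low or uneven. Col28a1, known from peripheral nerve, had 6.48, 13.7 and 0.396 CPM in the meninges, no count in the diaphragm and 0, 0.771 and 0 CPM in the skin, which made it at least 176-fold higher in the meninges than in the diaphragm taking 3 counts over the diaphragm group as the floor. It did not pass the test in this edgeR fit (adjusted p = 0.346), while the DESeq2 Wald test called it. Schwann cell markers summed to between 41.7 and 118 CPM in the meninges, 0.379 and 14.6 CPM in the diaphragm and 3.87 and 8.59 CPM in the skin, and their part in the result was not tested. Col26a1 had 0.188, 0.125 and 1.51 CPM in the meninges, 0.221, 20.7 and 1.58 CPM in the diaphragm and no count in the skin. Col27a1, a fibril-forming chain of cartilage counted here among the others, had 7.42, 139.8 and 18.1 CPM in the meninges, 0.0369, 4.39 and 0 CPM in the diaphragm and 0.193, 37.9 and 5.94 CPM in the skin. Col10a1, a marker of hypertrophic cartilage, reached 50.2 CPM in skin replicate 3 and at most 14.7 CPM elsewhere. Col7a1, which forms the anchoring fibrils under the epidermis, had 0, 0 and 0.0264 CPM in the meninges, 0, 0.0757 and 0 CPM in the diaphragm and 0.89, 3.04 and 0.274 CPM in the skin. Col24a1 had counts in meninges replicate 1 alone (0.407 CPM).

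Ratios between the chains of one protein were compared per transcript length, since they do not depend on the scaling between libraries. The ratio of Col1a1 to Col1a2 was 1.0, 1.02 and 0.982 in the meninges, 0.761, 0.716 and 0.712 in the diaphragm and 0.463, 1.03 and 0.924 in the skin. Across a 280.2-fold range of Col1a1 level the ratio varied by 2.22-fold, and each meningeal library was above each diaphragm library. For Col4a1 to Col4a2 it was 1.55, 1.37 and 0.854 in the meninges, 2.68, 2.4 and 1.95 in the diaphragm and 0.872, 1.57 and 2.8 in the skin. All diaphragm libraries lay above all meningeal ones, and skin spanned both. The ratio of Col6a1 to Col6a2 was 0.811, 1.04 and 0.795 in the meninges, 0.407, 0.237 and 0.498 in the diaphragm and 0.174 and 0.22 in skin replicates 2 and 3, without overlap between tissues, and could not be formed in skin replicate 1. Across proteins, Col3a1 to Col1a1 was 0.25, 0.418 and 0.341 in the meninges, 3.63, 1.91 and 4.6 in the diaphragm and 4.9, 0.646 and 0.328 in the skin. Col3a1 transcripts exceeded those of Col1a1 per length in all 3 diaphragm libraries and in skin replicate 1, and were below them in all 3 meningeal libraries. The transcript lengths come from another genome build than the counts, which shifts a ratio by the same factor in every library.

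**Figure D4:**
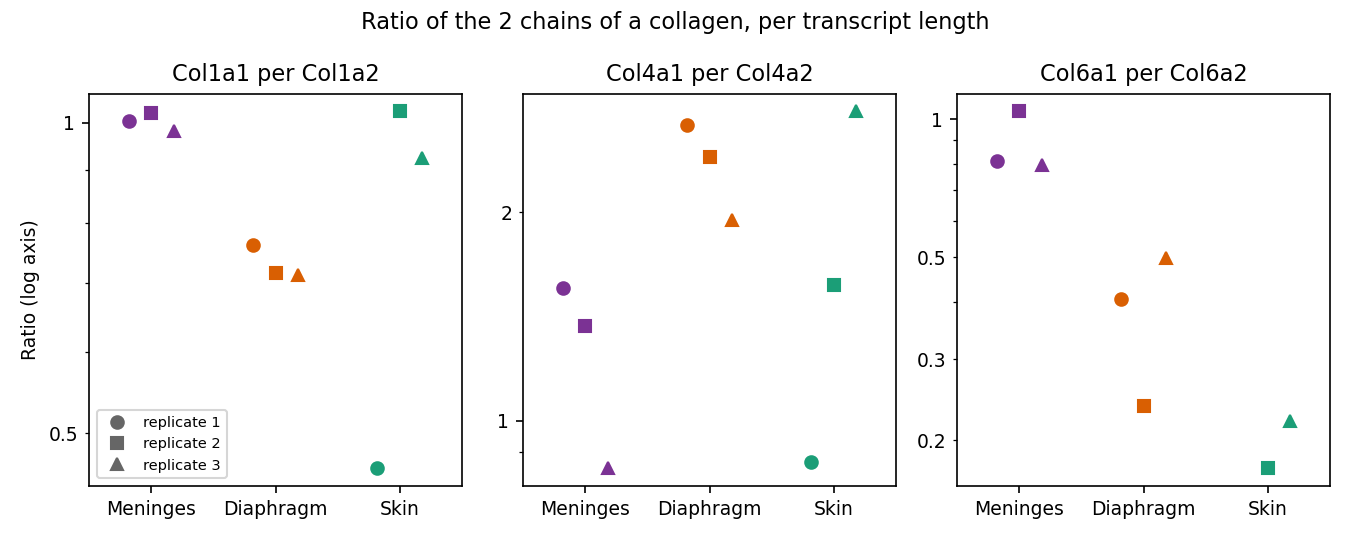
Ratio of Col1a1 to Col1a2, Col4a1 to Col4a2 and Col6a1 to Col6a2 transcripts per kilobase in each library, by tissue, on log axes; marker shape gives the replicate. Skin replicate 1 has no point for the type VI pair because Col6a2 had no count there, and meningeal ratios lie between 0.982 and 1.02 for type I.

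The levels were also set beside the 12 fibroblast markers of the same library, as a description. These markers include Serpinf1 and Thbs2, which were themselves higher in the meninges than in skin. Col1a1 per unit of summed marker level was 0.857, 0.911 and 0.803 in the meninges, 0.191, 0.152 and 0.122 in the diaphragm and 0.144, 0.453 and 1.46 in the skin. The meningeal libraries, which differed 5.37-fold in Col1a1 itself, were alike on this measure and above each diaphragm library, while skin replicate 3 was higher still. Col3a1 per unit was 0.201, 0.357 and 0.257 in the meninges, 0.653, 0.272 and 0.527 in the diaphragm and 0.66, 0.274 and 0.451 in the skin, with the meninges overlapping both and lower on average. Col12a1 per unit was 0.904, 0.725 and 0.67 in the meninges, 0.0446, 0.0816 and 0.0217 in the diaphragm and 0.0144, 0.169 and 0.0399 in the skin, and the meningeal libraries stood clear of all others. On this scale Col12a1 in meninges replicate 1 was no lower than in replicates 2 and 3, and Col3a1 in the meninges was not above skin. Col5a2 and Col6a1, above all peripheral libraries in CPM, overlapped them here. Col6a1 per unit was 0.0935, 0.115 and 0.0714 in the meninges, at most 0.0838 in the diaphragm and at most 0.152 in the skin. Col5a2 was 0.052, 0.0513 and 0.0305 in the meninges, at most 0.0378 in the diaphragm and at most 0.256 in the skin. Col1a2 overlapped skin, as Col1a1 did, while Col8a2 stayed above all peripheral libraries.

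**Figure D5:**
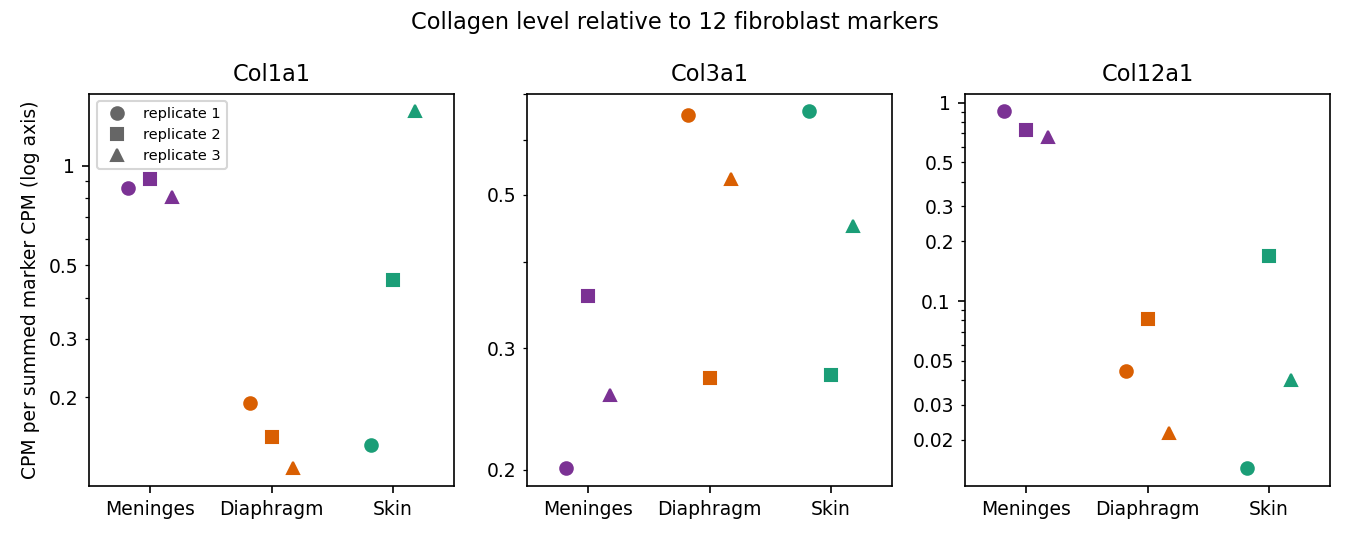
CPM of Col1a1, Col3a1 and Col12a1 divided by the summed CPM of 12 fibroblast markers in the same library, by tissue, on log axes; marker shape gives the replicate. For Col12a1 the meningeal libraries lie between 0.67 and 0.904, and the 6 others at 0.169 or below.

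Genes that make, process, bind and break down collagen were examined as 5 lists. Their median log2 fold changes for meninges over diaphragm and over skin were 1.02 and 0.73 for chain synthesis and secretion, 0.39 and 0.32 for processing and cross-linking, 2.17 and 2.81 for fibril-associated proteins, 0.82 and 3.01 for receptors and 1.01 and 1.92 for breakdown, where all genes tested had 0.05 and 0.08. For diaphragm over skin the medians were -0.12, 0.40, -0.02, 2.60 and 0.06 in the same order of lists, where all genes had 0.01. Of the 24 tested genes for chain modification, folding and secretion, 1 was higher in the meninges than in the diaphragm, where 0.169% of all genes were, and none passed in the 2 other comparisons. At an unadjusted p under 0.05 there were 4 for meninges against diaphragm, 7 for meninges against skin and 4 for diaphragm against skin, where 10.1%, 13.8% and 11.8% of all genes had such a p. The one that passed was Creb3l1, a membrane-bound transcription factor that drives Col1a1 in bone cells, with 6.95, 106 and 129.7 CPM in the meninges, 0.0737, 0 and 0 CPM in the diaphragm and 1.74, 1.18 and 19.7 CPM in the skin. It had 2 counts in the diaphragm, and the ratio of the meningeal level to it was 3404 with a 95% counting interval of 942 to 28112 (edgeR adjusted p = 0.0282). The call held in 4 of the 9 fits that leave out 1 library; removal of meninges replicate 2 or 3 or of a diaphragm library ended it (adjusted p between 0.066 and 0.158), and limma voom did not make it (0.0646). Plod1, a lysyl hydroxylase, and P4hb, a subunit of prolyl hydroxylase, were abundant everywhere and did not pass, at 242 ± 37.1 and 194 ± 87.3 CPM in the meninges, 117 ± 30.6 and 181 ± 13.5 CPM in the diaphragm and 172 ± 18.7 and 124 ± 44 CPM in the skin (SD, n = 3 each).

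Of the 14 tested genes for procollagen processing and cross-linking, 2 were higher and 1 was lower in the meninges than in skin, where 0.748% and 0.573% of all genes were, and none passed in the other comparisons. At an unadjusted p under 0.05 there were 4 for meninges against diaphragm, 6 for meninges against skin and 0 for diaphragm against skin, beside the same 10.1%, 13.8% and 11.8% of all genes. Adamts2, which removes the N-terminal propeptide, had 42.5, 345 and 309 CPM in the meninges, 0.369, 12 and 3.4 CPM in the diaphragm and 1.93, 1.54 and 0 CPM in the skin (meninges over skin 7.63 ± 1.58, edgeR adjusted p = 0.0303). Pcolce, which enhances removal of the C-terminal propeptide, had 26.8, 188 and 124 CPM in the meninges, 8.51, 19.2 and 4.8 CPM in the diaphragm and 3.56, 6.94 and 8.13 CPM in the skin (4.18 ± 0.93, adjusted p = 0.0463). Tll1, a protease of the same step, ran the other way, with 22.2, 8.5 and 7.19 CPM in the meninges, 115, 90.1 and 124 CPM in the diaphragm and 109, 52.6 and 169.8 CPM in the skin (-3.13 ± 0.65, adjusted p = 0.0311). Each of these 3 calls failed without meninges replicate 2 or 3 and without skin replicate 1, those of Adamts2 and Pcolce also without skin replicate 2, and those of Tll1 and Pcolce also without skin replicate 3 (adjusted p between 0.0617 and 0.299). None of the 3 was called by limma voom (adjusted p between 0.0622 and 0.207), nor was Tll1 in a fit of these 2 tissues only (0.0865). With replicate 1 alone standing for the meninges the log2 differences from skin were 5.16 for Adamts2, 2.09 for Pcolce and -2.34 for Tll1. Tll1 was also lower in the meninges than in the diaphragm without meninges replicate 1 or skin replicate 2 (adjusted p = 0.037 and 0.0498).

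Among the 19 tested fibril-associated proteins, Tgfbi was lower in the meninges than in both other tissues, where 0.175% (diaphragm) and 0.573% (skin) of all genes were, and no other passed. At an unadjusted p under 0.05 there were 11 of 19 in each of the 2 meningeal comparisons and 3 for diaphragm against skin, where 10.1%, 13.8% and 11.8% of all genes had such a p. Tgfbi, a secreted adhesion protein that binds collagens, had 43.5, 31.6 and 49.3 CPM in the meninges, 169, 328 and 231 CPM in the diaphragm and 529, 413 and 738 CPM in the skin. All 3 meningeal libraries were close together and below the other 6 (log2 fold change -2.55 ± 0.39 over diaphragm and -3.75 ± 0.41 over skin, edgeR adjusted p = 0.013 and 0.00118). With replicate 1 alone standing for the meninges the log2 differences were -2.48 from diaphragm and -3.71 from skin. The call against diaphragm failed once meninges replicate 2 or 3 was removed (adjusted p = 0.0653 and 0.0527). Sparc, a collagen-binding matricellular protein, had 1588, 3883 and 4422 CPM in the meninges, 712, 464 and 303 CPM in the diaphragm and 57.4, 580.0 and 801 CPM in the skin, with no overlap and no call (2.74 ± 0.70 over diaphragm and 2.78 ± 0.70 over skin, adjusted p = 0.159 and 0.0748). It passed without skin replicate 1 over both (adjusted p = 0.00698 and 0.0402) and without meninges replicate 1 over skin (0.0433). Prelp, a leucine-rich proteoglycan, was at 910.4 ± 328 CPM in the meninges, 1251 ± 162 CPM in the diaphragm and 1268 ± 297 CPM in the skin (SD, n = 3 each). Its libraries overlapped between the tissues and it did not pass (adjusted p between 0.56 and 0.994).

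Of the 11 tested collagen receptors, 3 were higher in the meninges than in skin, where 0.748% of all genes were, and none passed in the other comparisons. At an unadjusted p under 0.05 there were 2 for meninges against diaphragm, 6 for meninges against skin and 5 for diaphragm against skin, beside 10.1%, 13.8% and 11.8% of all genes. The receptor tyrosine kinase Ddr2, which binds fibrillar collagens, had 68, 425 and 320.2 CPM in the meninges, 139, 161 and 41.5 CPM in the diaphragm and 16.8, 13 and 11.3 CPM in the skin (meninges over skin 4.31 ± 0.72, edgeR adjusted p = 0.0106). Itga11, the type I collagen integrin of fibroblasts, had 10.1, 241 and 161 CPM in the meninges, 0, 0.417 and 0 CPM in the diaphragm and no count in the skin, at least 3349-fold higher in the meninges than in skin, taking 3 counts over the skin group as the floor (adjusted p = 0.0122). Itga1, which prefers type IV collagen, had 255, 110.3 and 181 CPM in the meninges, 216, 137 and 72.9 CPM in the diaphragm and 22.3, 37.1 and 8.41 CPM in the skin (3.01 ± 0.63, adjusted p = 0.0329). Meninges replicate 1 was the highest of the 9 libraries for Itga1 and the lowest of its tissue for Ddr2 and Itga11. It was also the highest for the blood endothelial markers, whose part in the Itga1 result was not tested. The Itga11 call failed without meninges replicate 2 (adjusted p = 0.0542), and the Itga1 call once replicate 1 or 3 of either tissue was removed (adjusted p between 0.0877 and 0.101), while the Ddr2 call held in all 9 such fits. None of these 3 was called by limma voom (adjusted p between 0.0634 and 0.174), nor was Itga1 in a fit of these 2 tissues only (0.064). With replicate 1 alone standing for the meninges the log2 difference from skin was 2.28 for Ddr2 and 3.47 for Itga1. Against diaphragm, Itga11 passed without meninges replicate 1, diaphragm replicate 2 or any one skin library (adjusted p between 0.0206 and 0.04), and for diaphragm against skin Ddr2 passed without meninges replicate 1 (3.05, adjusted p = 0.0431).

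Of the 11 tested genes for collagen breakdown, Mmp13, a collagenase of bone and cartilage, was higher in the meninges than in both other tissues, where 0.169% (diaphragm) and 0.748% (skin) of all genes were, and no other gene passed. At an unadjusted p under 0.05 there were 3 for meninges against diaphragm, 5 for meninges against skin and 2 for diaphragm against skin, beside the 10.1%, 13.8% and 11.8% of all genes. Mmp13 had 17, 947 and 335 CPM in the meninges, 0.0369, 0 and 0.0358 CPM in the diaphragm and no count in the skin. The ratio to the diaphragm, which had 2 counts, was 17421 with a 95% counting interval of 4822 to 143859, and the meninges were at least 10316-fold above skin with the floor again at 3 counts over the skin group (edgeR adjusted p = 0.00511 and 0.0022). Both calls held in all 9 fits that leave out 1 library, while limma voom made neither (adjusted p = 0.272 and 0.196). Meninges replicate 1, the lowest of its tissue at 17 CPM, was above all 6 other libraries. The cathepsins Ctsl and Ctsb were at 459 ± 40.8 and 365 ± 54.7 CPM in the meninges, 228 ± 93.6 and 293 ± 35.6 CPM in the diaphragm and 225 ± 32.1 and 188 ± 72.3 CPM in the skin (SD, n = 3 each), and did not pass. Between diaphragm and skin none of the 11 passed. The bone and cartilage and fibroblast markers described above moved with Creb3l1, Adamts2, Itga11 and Mmp13 across the meningeal libraries, and their part in these results was not tested.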

How the data were processed

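The values used are the deposited counts, whole-number reads per Ensembl gene with 1 column per library. The submitters' processing notes name FastQC, STAR, HTSeq and the build mm9 for the authors' processing. Per the labels' protocols, PicoPure-extracted RNA was amplified with Nugen Ovation V2 chemistry before library preparation. Neither versions, annotation, strand setting nor the treatment of multiply mapped reads were stated in these sources, so overlapping, antisense and near-identical genes are uncertain. All count columns were used.

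The 33 testable collagen genes were taken from a fit of all genes. It used edgeR 4.0.16 in R 4.3.3 with filterByExpr (14831 genes kept), TMM scaling, glmQLFit and glmQLFTest, 1 mean per tissue over 9 libraries, and Benjamini-Hochberg adjustment, with a call at an adjusted p under 0.05. CPM are counts over the TMM effective library size. The biological coefficient of variation was 1.243, so at 3 libraries a tissue large differences can miss the threshold. Counting intervals are exact 95% intervals and, like floors, cover counting error only, since reads are not independent molecules. Fold changes of genes with hardly any count in a tissue depend on the prior count.

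Alternatives were DESeq2 1.42.0 (Wald test, and its size factors in edgeR), limma 3.58.1 voom with quality weights, upper-quartile factors, no filter, 50 counts in 3 libraries, fits of 2 tissues, a replicate block and each library left out. Added after seeing the data were fits with meninges replicate 1 as the sole meningeal library and without meninges replicates 2 and 3 and skin replicate 2. Replicates of a tissue differed by more than sampling noise (chi-square of 325.6 to 533.9 for each degree of freedom), so each library counts once. The tests were also run on simulated counts.

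The collagen genes, pathway lists and marker lists were chosen with earlier results of these data known. Named members were those called, the 5 highest by average level in each class, those with at least 100 counts in all 9 libraries and both chains of 6 gene pairs; members outside this rule were named to account for the family. From each pathway list the rule took up to 4 called genes and, with fewer than 2 called, also the 2 with the highest average. Per-kilobase levels use the longest coding transcript in GENCODE on GRCm38, and promoter windows, found for 33 of the 41 genes, come from RefSeq on GRCm38.p6. Tables and plots used Python 3.11.15, pandas 2.3.3 and matplotlib 3.10.9.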

Additional observations from a re-analysis of the deposited data

How the results depend on the processing

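The number of genes called, over all genes, was 51 for meninges against diaphragm, 196 for meninges against skin and 6 for diaphragm against skin. In that order it was 298, 610 and 305 with no filter, 629, 1114 and 808 by DESeq2's Wald test, 200, 414 and 1 with limma voom, and 11, 58 and 82 with meninges replicate 1 as the sole meningeal library. Fits of 2 tissues gave 108 for the first and 1 for the last comparison. For diaphragm against skin, a filter of 50 counts gave 13, the replicate block 16, and removal of meninges replicates 2 and 3 with skin replicate 2 gave 239. Leaving out each library in turn gave 19 to 105, 74 to 236 and 2 to 58. The collagen genes called, 1, 1 and 0 in the same order, became 8, 10 and 6 with no filter, and DESeq2 called 8, 6 and 4, the first without Col8a2, to which it gave no adjusted p; limma voom's calls against skin did not include Col3a1. Meninges against diaphragm gave 3 with the replicate block, 5 with 2 tissues and 0 with meninges replicate 1 as the sole meningeal library. Meninges against skin gave 0 with DESeq2 size factors, 2 with upper-quartile factors, 3 with a filter of 50 counts, 2 with limma voom, 6 with the replicate block, 0 with 2 tissues, 0 with meninges replicate 1 alone and 4 without the 3 libraries named above. Diaphragm against skin gave 1 (Col8a1) with meninges replicate 1 alone and 7 without those 3 libraries. Leave-one-out fits gave 0 to 6, 0 to 5 and 0 to 2 collagen genes. With 1 meningeal library the other tissues alone give the spread, so those counts are no test of the calls. The cause of these shifts was not tested. In fits without a filter more genes with few counts are tested, but the collagen genes newly called there included genes with many counts. For Col1a1 over diaphragm the edgeR adjusted p was 0.0887 with the filter and 2.83e-10 without it, at log2 fold changes of 4.32 and 4.33. Same-numbered libraries deviated from their group means with correlations between -0.0205 and 0.0512, so the numbers were not taken to pair libraries. Signs reversed for 3 differences, none of them called. Col4a1 for diaphragm over skin was -0.082 without diaphragm replicate 1, -0.036 without skin replicate 2 and -0.036 without the 3 libraries, in a leave-one-out range of -0.082 to 0.398. Col4a2 for meninges over skin was 0.1 without meninges replicate 2 and 0.335 without skin replicate 1, in a leave-one-out range of -0.475 to 0.335. Creb3l1 for meninges over skin was -0.137 with meninges replicate 1 alone and -0.626 without the 3 libraries. Of the other values of single genes and class sums under an alternative, 972 kept their direction and side of the threshold or stayed within the spread, 107 newly passed and 72 no longer passed. At most 3 libraries a tissue and their wide spread limit what can be called: in edgeR's fit a log2 fold change near 4 with no overlap, as for Col1a1, missed the threshold.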

Other observations

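Collagen genes were detected unevenly between libraries. At least 1 count was found for 36, 33 and 33 of the 41 genes in the meningeal libraries, 29, 31 and 29 in the diaphragm libraries and 24, 36 and 32 in the skin libraries. A gene with no count in one library and at least 100 in another of the same tissue occurred for 1 of the 41 in the meninges (Col9a2), 4 in the diaphragm (Col6a6, Col9a3, Col13a1 and Col27a1) and 15 in the skin. Among the 33 tested genes these were 0.00%, 12.1% and 33.3%, where all genes tested gave 7.42%, 11.2% and 12.1% in the same order of tissues. The 15 in skin include the type VI chains Col6a2, Col6a3, Col6a5 and Col6a6, the cartilage chains Col2a1, Col9a1, Col10a1, Col11a1 and Col11a2, and the basement membrane gene Col15a1. By contrast 15 of the 41 genes had a count in all 9 libraries, among them Col4a1, Col4a2, Col4a4, Col4a5 and Col18a1. No result met the rules for a closer look, since groups of 3 libraries are too small for a test of a single outlying library.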
